A study of Mus musculus with 18 samples.

Results

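The enrichment difference between Pus1 knockdown cells and wild type (WT) cells was measured in NIH/3T3 cells, a mouse embryonic fibroblast line. An antibody to pseudouridine (Ψ) was used for immunoprecipitation (IP) of small RNAs, and both the IP and the input RNA were sequenced. The 12 libraries used, of 18 in the series, were WT input, WT IP, input 6 days after Pus1 knockdown (KD6 input) and KD6 IP, with 3 replicates (A, B and C) in each group. The other 6 libraries, input and IP at 3 days, entered the fit to estimate the spread, and also the filter and the scaling. All groups came from 1 cell line without a drug or a transgene named in the labels, and nothing in the labels says that replicates were separate cultures, so p-values measure the spread between these samples, which may be technical. The table holds microRNAs (miRNAs) only, so the level of Pus1 itself could not be checked.

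Ψ is an isomer of uridine in which the base is joined to the sugar through a carbon atom, and PUS1 is a synthase that makes it in transfer RNA and other RNAs without a guide RNA. miRNAs are cut from hairpin precursors, and 1 strand of the hairpin, the guide, is usually kept in an Argonaute protein while the other, the passenger, is mostly lost. A guide finds its targets mainly through its seed, the bases at positions 2 to 8, and miRNAs with the same seed form a family. An IP with a Ψ antibody enriches RNA that carries Ψ, and the question of the comparison is whether that enrichment differs once Pus1 is knocked down.

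Sequences are shown for the families described below, with the seed in capitals. RefSeq sequences (GRCm38.p6) were matched by name to 475 of the 550 miRNAs tested. The let-7 guides share 1 seed and differ in the bases after it, and let-7d-5p also differs at its first base.
let-7a-5p: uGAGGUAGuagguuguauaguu
let-7b-5p: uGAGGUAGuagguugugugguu
let-7c-5p: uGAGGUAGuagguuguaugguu
let-7d-5p: aGAGGUAGuagguugcauaguu
let-7e-5p: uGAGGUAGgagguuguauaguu
let-7f-5p: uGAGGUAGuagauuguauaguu
let-7g-5p: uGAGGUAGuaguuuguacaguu
let-7i-5p: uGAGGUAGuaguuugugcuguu
miR-98-5p: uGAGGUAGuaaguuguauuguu

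The next sequences are of miRNAs with negative differences. The first 3 share the miR-17 seed, and miR-16-5p carries the seed of the miR-15/16 family.
miR-17-5p: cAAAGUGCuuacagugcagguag
miR-20a-5p: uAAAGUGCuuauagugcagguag
miR-93-5p: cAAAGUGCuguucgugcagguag
miR-16-5p: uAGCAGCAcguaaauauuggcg
miR-342-3p: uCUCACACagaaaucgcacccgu
miR-23a-3p: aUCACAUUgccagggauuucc

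The last set holds miRNAs with positive differences from other families, and both arms of the mir-27a hairpin, which had differences of opposite sign.
miR-10a-5p: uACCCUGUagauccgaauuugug
miR-10b-5p: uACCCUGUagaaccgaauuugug
miR-92a-3p: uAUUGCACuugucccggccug
miR-25-3p: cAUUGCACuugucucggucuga
miR-7a-5p: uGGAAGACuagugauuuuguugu
miR-27a-3p: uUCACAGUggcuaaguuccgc
miR-27a-5p: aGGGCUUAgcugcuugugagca

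Mapped reads in the 12 libraries ranged from 241109, in KD6 input A, to 12530362, and the next lowest library had 3989031. Of mapped reads, 14.8% to 18.6% fell outside miRNA rows in WT IP and 23.2% to 30.3% in KD6 IP, against 5.47% to 9.96% in the inputs. At a common depth of 3063115 miRNA reads, 662 to 680 miRNAs were expected with a read in WT IP and 558 to 616 in KD6 IP. All 9 fibroblast miRNAs on the marker list were present. Of 20 miRNAs that mark other cell types, 16 had reads. Their summed level, most of it miR-9-5p, is given in CPM (counts scaled to a common library size). It was 6302 to 7312 in WT IP and 8802 to 10130 in KD6 IP. In the inputs it overlapped, at 2892 to 3360 in WT and 2715 to 3614 in KD6. The fibroblast miRNAs also summed higher in KD6 IP, to 271800 to 401300 CPM against 203300 to 218600 in WT IP. miR-141-3p, miR-133a-3p, miR-291a-3p and miR-295-3p were at 0 in all 12 libraries. The scaling factors behind CPM were 0.61 to 0.85 in KD6 IP and 0.99 to 1.08 in WT IP. A lower factor gives a higher CPM. Levels in KD6 IP thus stand higher against WT IP in CPM than as shares of miRNA reads. The part of these library properties in the differences below was not tested.

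The enrichment difference is the log2 ratio of IP to input in KD6 minus that in WT, so a positive value means that a miRNA was more enriched after knockdown. In edgeR's quasi-likelihood test none of the 550 miRNAs passed a Benjamini-Hochberg adjusted p of 0.05 (0%), and the smallest adjusted p was 0.0847. At an unadjusted p under 0.05 there were 119 miRNAs (21.6%), of which 84 (15.3%) had a positive and 35 (6.36%) a negative difference. DESeq2 called 35 miRNAs, 29 of them higher in KD6, and limma voom with sample weights called 26, 23 of them higher. Among all tested, 328 differences (59.6%) were positive, with a median of 0.25. This centre depended on the scaling. The median was 0.22 with TMM factors and -0.41 with unadjusted library sizes. It was -0.56 when total mapped reads set the library size, where all 51 calls were lower. Medians of the let-7 lists, and some other values, are therefore also given relative to the median of all miRNAs tested. Signs elsewhere are not adjusted for this centre.

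The share of positive values differed between classes of abundance without a steady trend. Of 68 miRNAs with a mean of at least 1000 CPM, 51 (75%) had a positive difference, with a median of 0.41, and 28 had a positive difference at an unadjusted p under 0.05 against 3 with a negative one. The 141 miRNAs between 10 and 100 CPM had a median of 0.08, with 77 positive. The 83 between 100 and 1000 CPM had 0.14, with 45 positive, and the 258 under 10 CPM had 0.33, with 155 positive. The median standard error (SE) was 1.00 under 10 CPM and 0.29 at 1000 CPM or more, so single values of scarce miRNAs carried little information.

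**Figure D1:**
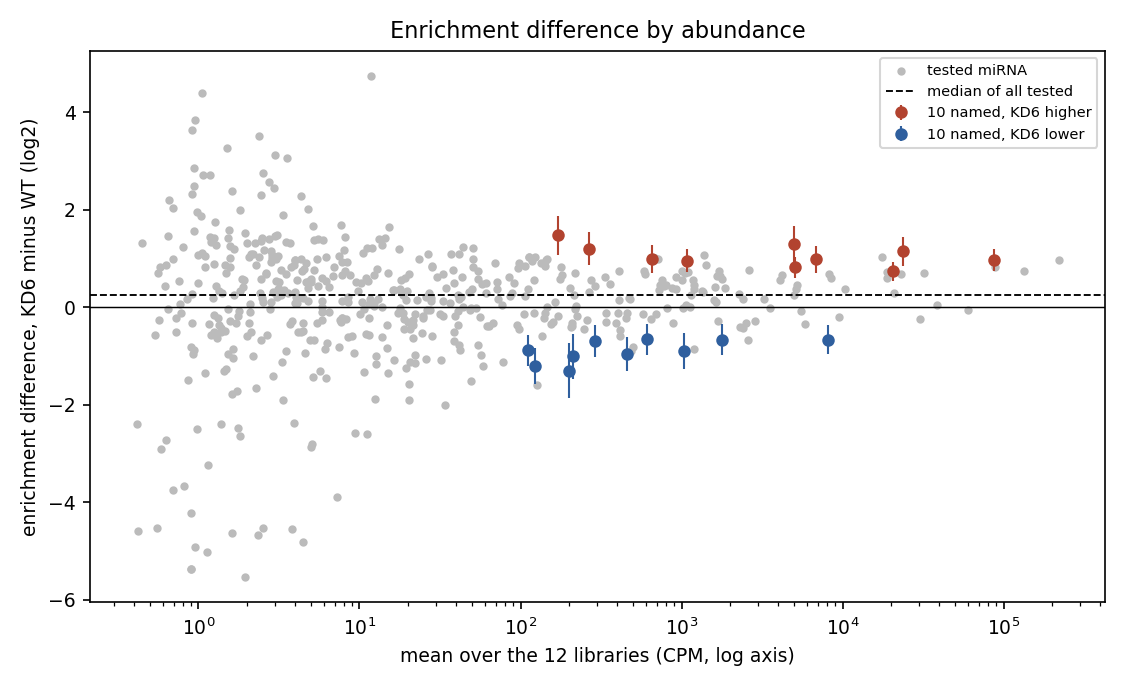
Each point is 1 of 550 miRNAs, with its mean CPM over the 12 libraries on a log axis and its enrichment difference (log2, KD6 minus WT) on the other. Red and blue points with SE bars are the 10 named higher and 10 named lower miRNAs, and the dashed line is the median of 0.25; scatter is widest at the low end, where the median SE was 1.00.

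The let-7 guides, which repress growth and stem cell genes such as Hmga2 and Lin28, lay on 1 side. All 9 had a positive difference, with a median of 0.75. At an unadjusted p under 0.05 there were 7 of the 9 (15.3% of all miRNAs in that direction). None passed the adjusted threshold in edgeR. All 9 had a mean above 1000 CPM. In that class, these guides included, 51 of 68 differences were positive, 28 of them at an unadjusted p under 0.05. DESeq2 called 5 of the guides among 29 miRNAs it called higher, and voom 4 among 23, of 550 tested in each. The list was taken up because the study discussed let-7 in this experiment, so it is not an independent choice. The study itself reported let-7 as not affected by the knockdown, and its measure and threshold may differ from those here. The median stood 0.41 to 0.75 above that of all miRNAs under the 29 alternatives. Its own sign held in 28 of them and turned to -0.08 with total mapped reads and KD6 input A left out, and let-7b-5p and let-7e-5p were negative with unadjusted library sizes, at -0.08 and -0.31.

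Among the let-7 guides let-7f-5p had the smallest p. It lies on chr13:48537889-48537910 in an exon of the noncoding gene 6720427I07Rik and on chrX:151912353-151912374 in an intron of Huwe1. It was at 37720, 36351 and 31384 CPM in WT input A, B and C and at 94512, 98699 and 119420 in WT IP. In KD6 it was at 33119, 33771 and 26615 in input and at 216740, 168620 and 156560 in IP. The KD6 IP values all exceeded the WT IP values, while the inputs overlapped. The enrichment difference was 0.97 ± 0.23 (SE, n = 3 per group, adjusted p = 0.0847), and 0.83 ± 0.21 without KD6 input A (adjusted p = 0.0405), both in edgeR. Each IP library was also set over each input library of its condition, and the 9 KD6 ratios, from 2.21 to 3.03 on the log2 scale, all lay above the 9 WT ratios, from 1.33 to 1.93. Such separation was seen for 40 miRNAs (7.27%) in the higher direction and 9 (1.64%) in the lower one.

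let-7d-5p and let-7a-5p had the largest estimates in the list. let-7d-5p was at 1666, 1777 and 1647 CPM in WT input and at 4714, 5022 and 5026 in WT IP, and at 834.4, 2290 and 1737 in KD6 input and at 16232, 11086 and 7706 in KD6 IP. KD6 input A was the lowest of the 6 inputs, and leaving it out took the difference from 1.30 ± 0.37 to 0.81. let-7a-5p gave 1.15 ± 0.29 and 0.76 without that library. At the other end, let-7e-5p had 0.30 ± 0.22 and 0.05 without it, and let-7b-5p 0.59 ± 0.34 and 0.11. In 6 of the 9 guides the 9 KD6 ratios lay above all 9 WT ratios (7.27% of all miRNAs did so).

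The passenger strands of the same hairpins lay on the same side. Of 12 with reads 11 were tested, all 11 had a positive difference, the median was 0.91, and 6 had an unadjusted p under 0.05 (15.3% of all miRNAs did in that direction). let-7d-3p, the most abundant, went from 1825, 1674 and 1940 CPM in WT IP to 4590, 3042 and 2103 in KD6 IP, with inputs of 158 to 277 in both conditions. Its difference was 1.08 ± 0.32. It was the 1 of the 11 in which the KD6 and WT ratios did not overlap (7.27% of all miRNAs in that direction). The rows of let-7c-2-3p and let-7a-1-3p have the same sequence and nearly the same counts, so they are not separate measurements. The median was 0.68 without KD6 input A and turned to -0.09 when total mapped reads were also used, and stood 0.53 to 0.94 above that of all miRNAs over the alternatives. let-7k, with the let-7 seed but outside the list and at a mean of 2.18 CPM, had -0.998 ± 0.63.

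**Figure D2:**
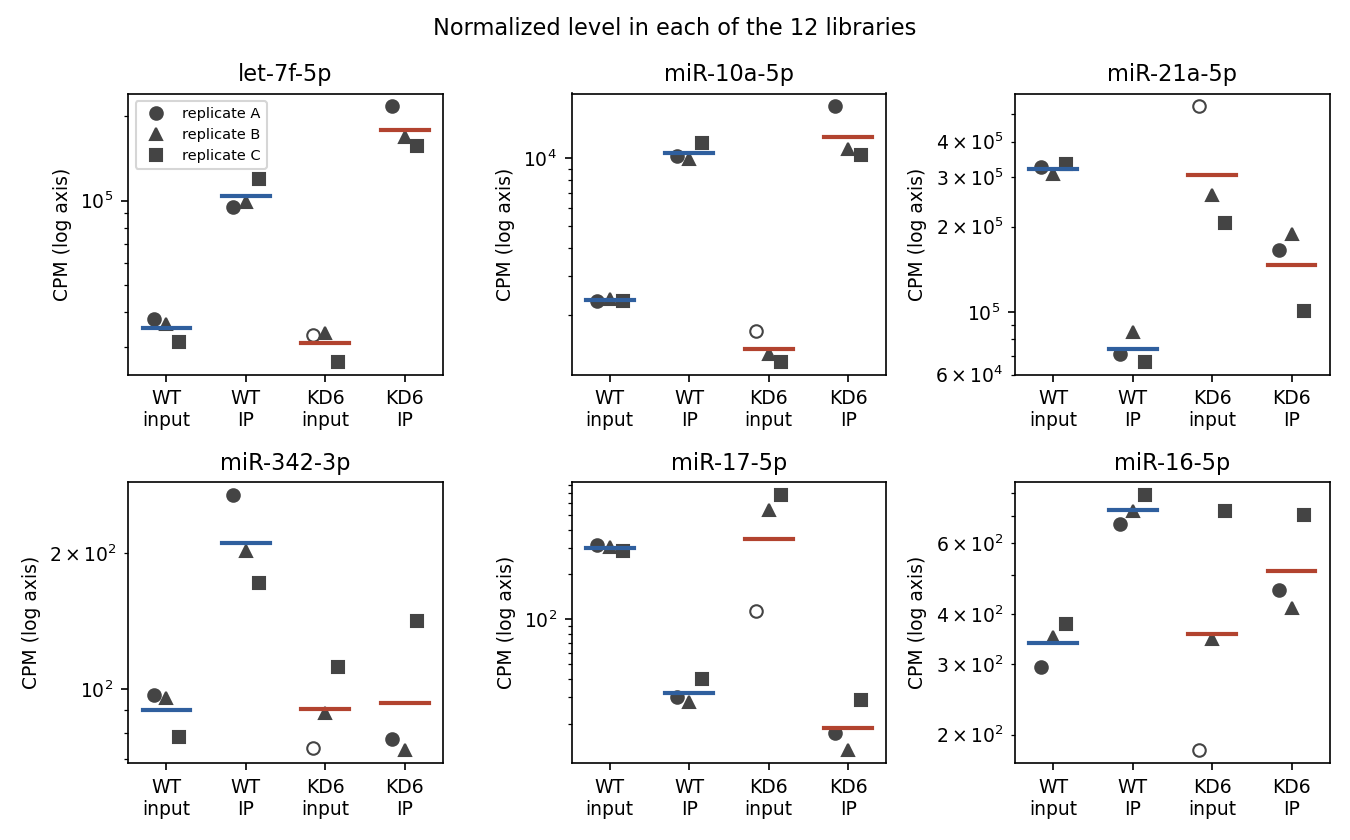
CPM on a log axis for 6 miRNAs in WT input, WT IP, KD6 input and KD6 IP, with 1 point per library, the geometric mean of 3 replicates as a bar, and an open circle for KD6 input A. let-7f-5p is highest in KD6 IP, at 156560 to 216740 CPM, whereas miR-342-3p is highest in WT IP, at 172 to 270, and KD6 input A stands apart for miR-21a-5p, miR-17-5p and miR-16-5p.

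Of the 4 Hox cluster miRNAs 3 had a positive difference. miR-10a-5p and miR-10b-5p had an unadjusted p under 0.05 (15.3% of all miRNAs did in that direction). miR-10a-5p was at 2304, 2356 and 2322 CPM in WT input and at 10229, 9956 and 11771 in WT IP, and at 1703, 1340 and 1237 in KD6 input and at 17097, 11070 and 10320 in KD6 IP. Its KD6 inputs were all below its WT inputs, while the IP groups overlapped. The difference was 0.98 ± 0.28 (edgeR adjusted p = 0.0985), of which 0.27 lay in the IP libraries and -0.71 in the inputs. miR-10b-5p, which lies in an intron of Hoxd3 and Hoxd4 and differs from miR-10a-5p by a single base, had 0.82 ± 0.24, with 0.57 in the IP libraries. miR-196a-5p had 0.52 ± 0.65 and miR-196b-5p -0.12 ± 0.51. The 4 had a median of 0.67, which turned to -0.09 with total mapped reads.

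At a mean of at least 100 CPM, the 10 smallest p with a positive difference included 3 let-7 guides (let-7f-5p, let-7a-5p and let-7d-5p). They also included let-7j, which differs from let-7i-5p only at the last base of the seed and by added bases at its end. It had 34604 reads in WT input A against 981146 of let-7i-5p, and 25409 against 629461 in KD6 IP A. Its difference was 0.82 ± 0.22, near the 0.75 ± 0.22 of let-7i-5p. Whether the reads of let-7j are separate from those of let-7i-5p was not tested. The KD6 and WT ratios overlapped only for miR-1198-5p (they lay apart in that direction for 7.27% of all miRNAs). The 10 were chosen by their p on these libraries, so this separation follows in part from the choice. miR-7a-5p, which has a copy in an intron of Hnrnpk, was at 23109, 28080 and 24999 CPM in WT IP and at 42012, 35458 and 38568 in KD6 IP, with inputs of 8152 to 9983. Its difference was 0.74 ± 0.20. miR-27a-3p, miR-455-5p and miR-101a-3p were depleted by the IP in both conditions, and less so in KD6. miR-455-5p, in an intron of the collagen gene Col27a1, had 3.95 to 8.39 CPM in WT IP and 14.9 to 26.3 in KD6 IP against 261 to 449 in the inputs, and a difference of 1.47 ± 0.40. miR-101a-3p, which targets Ezh2, had 1.00 ± 0.29. A positive difference thus covers both a larger enrichment and a smaller depletion.

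At a mean of at least 100 CPM, the 10 smallest p with a negative difference had wider errors. Of these miRNAs only miR-342-3p was enriched by the IP in WT. The others were already depleted there, with log2 ratios of IP to input from -3.77 in miR-199a-5p to -0.43 in miR-181d-5p. For them a negative difference is a larger depletion in KD6. miR-342-3p, in an intron of Evl, is 1 of 4 miRNAs the study described. It was at 97.2, 95.6 and 78.4 CPM in WT input and at 270, 203 and 172 in WT IP, and at 74.1, 88.6 and 112 in KD6 input and at 77.7, 73.1 and 141 in KD6 IP. All KD6 IP values were below all WT IP values, and the ratio of IP to input was 1.25 on the log2 scale in WT and 0.04 in KD6. The difference was -1.21 ± 0.37 (edgeR adjusted p = 0.108), and -1.47 ± 0.37 without KD6 input A (adjusted p = 0.0405). It was negative under all 29 alternatives, from -2.15 to -0.996. The 9 ratios of the conditions overlapped, from 0.82 to 1.78 in WT and from -0.61 to 0.93 in KD6.

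The other miRNAs of that list had smaller or less certain values. miR-16-5p, a repressor of cyclins and Bcl2, was at 670, 722 and 792 CPM in WT IP and at 458, 413 and 707 in KD6 IP, while its KD6 inputs spread from 183 to 720. Replicate C of KD6 lay within the WT range in IP and above it in input. The difference was -0.81 ± 0.46. miR-30c-1-3p gave -0.84 ± 0.39, and miR-20a-5p -0.29 ± 0.41. All 4 differences were negative, with a median of -0.83, and 2 had an unadjusted p under 0.05 (6.36% of all miRNAs did in that direction). That of miR-20a-5p was 0.10 when KD6 input C was left out. Without KD6 input A it was -0.82 ± 0.29, that of miR-16-5p -1.29 ± 0.40 and that of miR-30c-1-3p -1.01 ± 0.39. Their adjusted p then ran from 0.087 to 0.153 in edgeR, and the list median was -1.15. With that library left out DESeq2 called 2 of the 4 and voom 3. The list was chosen by the study on these libraries and is not independent evidence of its direction.

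The miR-17 seed family, with members in the miR-17-92 cluster that promote cell division, had 6 negative differences of 6, a median of -1.08, and 3 at an unadjusted p under 0.05 (6.36% of all miRNAs in that direction), miR-106a-5p among them. miR-17-5p was at 314, 306 and 288 CPM in WT input and at 30.4, 27.97 and 39.8 in WT IP. In KD6 it was at 114, 540 and 684 in input and at 17.4, 13.3 and 29.0 in IP. KD6 input A stood below the WT inputs and the other 2 KD6 inputs above them, so the difference went from -1.30 ± 0.57 with all libraries to -1.87 ± 0.41 without that library (adjusted p = 0.0405 in edgeR). miR-93-5p, in an exon of Mcm7 as the annotation has it, gave -0.96 ± 0.35 and -1.33 ± 0.34. miR-106a-5p had no read in KD6 IP, so its fitted value is no bound. At a floor of 3 counts over the group its difference is -0.15 or lower, and with it at this bound the median of the family was -0.82. The median was negative under all 29 alternatives, from -2.18 to -0.69.

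The miR-25/92 seed family has members in the same transcripts as the miR-17 family. miR-92a-3p lies on chr14:115044476-115044496 in an exon of Mir17hg, as do miR-17-5p and miR-20a-5p, and has another copy on chrX:52741854-52741874, so its reads cannot be told apart by copy. It was at 33284, 34402 and 38710 CPM in WT IP and at 60161, 36848 and 46370 in KD6 IP, with inputs of 2686 to 4705, and its difference was 0.69 ± 0.28, and 0.31 without KD6 input A. The IP libraries of KD6 B and WT C overlapped. miR-25-3p, in the same Mcm7 transcript as miR-93-5p, gave 0.18 ± 0.27, and -0.19 without that library. The 4 members of the miR-25/92 seed family all had a positive difference, with a median of 0.59, and 0.23 without KD6 input A. This median turned to -0.06 with unadjusted library sizes and -0.21 with total mapped reads. Relative to the median of all miRNAs tested it was 0.34, and the value of miR-25-3p was -0.08.

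The miR-15/16 seed family also had 6 negative differences of 6, with a median of -0.97 and 2 at an unadjusted p under 0.05 (6.36% of all miRNAs). Among these, miR-497a-5p had no read in KD6 IP, and the median was -0.73 with it at its bound. The median was negative under all 29 alternatives, from -2.05 to -0.21. The 4 members of the miR-181 family were negative too, with a median of -0.66, but the median turned to 0.08 when KD6 input C was left out. In the miR-23/24/27 clusters miR-23a-3p and miR-23b-3p gave -0.89 ± 0.37 and -0.89 ± 0.32, and miR-27a-3p 0.96 ± 0.24. For miR-23b-3p alone among the 10 named lower miRNAs the 9 KD6 ratios all lay below the WT ones (1.64% of all miRNAs did so). The IP levels of miR-23b-3p were 121, 107 and 86.9 CPM in WT and 28.3, 64.9 and 51.3 in KD6.

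**Figure D3:**
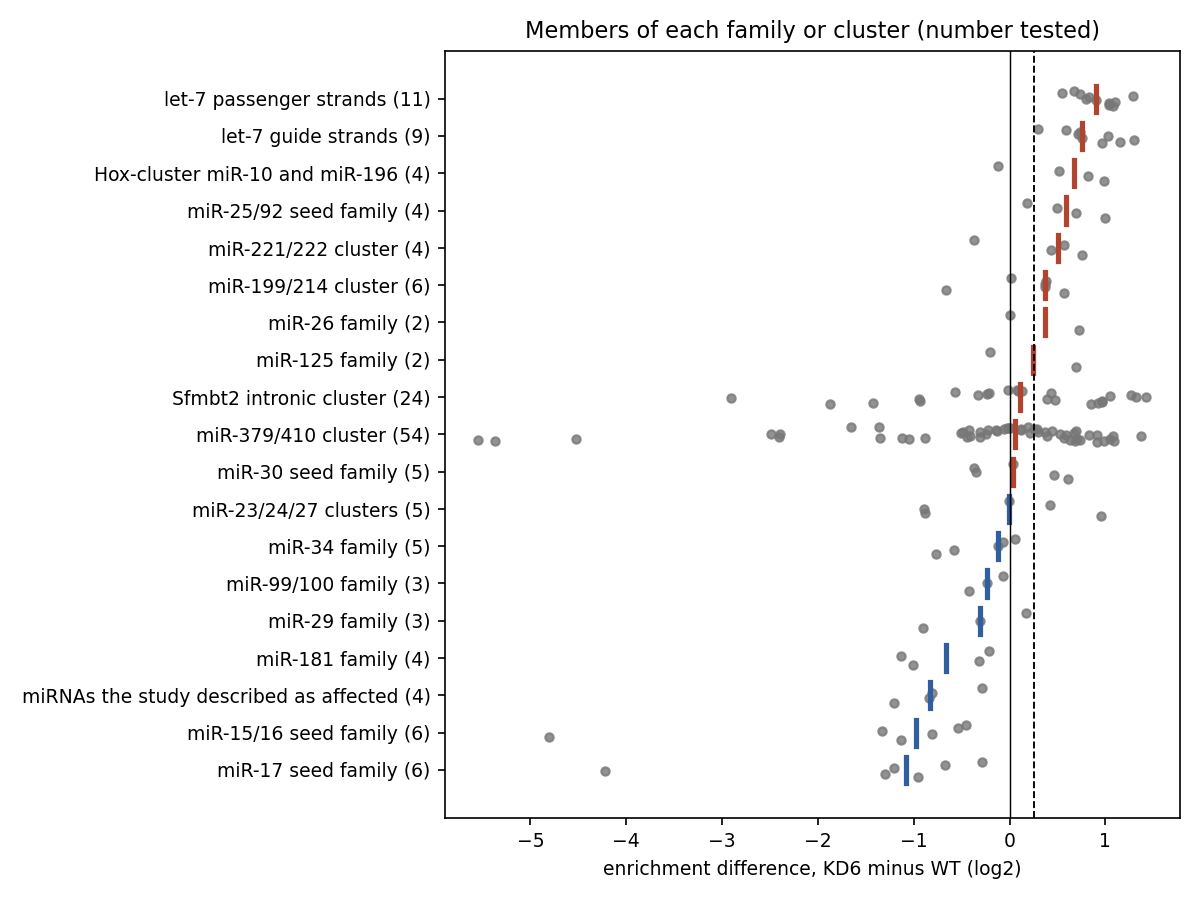
Each grey point is the enrichment difference (log2) of 1 tested member, and each bar is the median of its family or cluster, red above 0 and blue below. The dashed line is the median of all 550 miRNAs (0.25); the medians run from -1.08 in the miR-17 seed family to 0.91 in the let-7 passenger strands.

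The remaining lists were mixed or had few members. The miR-379/410 cluster, an imprinted group on chromosome 12, had 28 positive and 26 negative differences of 54 tested, with a median of 0.06, or 0.21 with members that had a group at 0 set to their bound. The Sfmbt2 intronic cluster had 14 positive and 10 negative. Medians were 0.04 in the miR-30 seed family, -0.31 in the miR-29 family, 0.37 in the miR-199a and miR-214 cluster, 0.37 in the miR-26 family, 0.24 in the miR-125 family, -0.23 in the miR-99/100 family, 0.50 in the miR-221 and miR-222 cluster and -0.12 in the miR-34 family, each from 2 to 6 members tested. All 3 members of the miR-99/100 family were negative and both of the miR-26 family positive. The miR-199a and miR-214 cluster was taken with the miR-199b rows. Those of miR-199a-3p and miR-199b-3p, each at 0.37, have the same sequence, so they are not separate measurements. Without KD6 input A the median turned to -0.07 in the miR-199a and miR-214 cluster, -0.02 in the miR-26 family, -0.20 in the miR-125 family, -0.30 in the miR-30 seed family, -0.15 in the miR-379/410 cluster and -0.12 in the Sfmbt2 cluster, and was 0.18 in the miR-221 and miR-222 cluster, -0.59 in the miR-29 family, -0.10 in the miR-99/100 family and -0.44 in the miR-34 family. Relative to the median of all miRNAs tested, with all libraries, some positive medians turned negative. They were -0.22 in the miR-30 seed family, -0.01 in the miR-125 family, -0.19 in the miR-379/410 cluster and -0.15 in the Sfmbt2 cluster. Those of the miR-199a and miR-214 cluster, the miR-26 family and the miR-221 and miR-222 cluster stayed positive, at 0.12, 0.11 and 0.25. miR-29b-3p varied widely between inputs, from 184 to 2961 CPM. Its difference of -0.90 ± 1.09 turned to 1.40 when KD6 input C was left out.

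Seeds were also counted without regard to the lists. Among the 475 miRNAs with a RefSeq sequence, 6 seeds were carried by at least 4 of different sequence. In 3 of them, those of the miR-17, miR-15/16 and miR-181 families, all differences were negative. In 2, those of miR-25/92 and of the let-7 passengers, all were positive, and the seed of the let-7 guides had 9 positive of 10. The miR-30 seed family has 5 tested members, not all with a sequence here, and was split into 3 positive and 2 negative. Families of near identical sequence can share reads, which the deposited counts split, so members are not independent.

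Arms of the same hairpin had the same sign in some cases and opposite signs in others. Many arms were scarce and 59.6% of all differences were positive, so opposite signs are not read as a result in themselves. Spearman's rho between arms was 0.14 over all hairpins with both tested and 0.48 where both had at least 100 CPM. Of 140 hairpins with both arms tested, 45 had 2 positive and 35 had 2 negative differences, and 60 had 1 of each. Among the 17 with both arms at 100 CPM or more, 9 had both positive, 4 had both negative and 4 had opposite signs. mir-27a was the clearest of these. miR-27a-3p was at 265, 273 and 246 CPM in WT IP and at 557, 509 and 367 in KD6 IP, and miR-27a-5p at 154.4, 142 and 183 in WT IP and at 59.9, 83.2 and 119 in KD6 IP. The IP groups did not overlap for either arm, and the difference was 0.96 ± 0.24 for the 3p arm and -0.69 ± 0.32 for the 5p arm. mir-140, in the gene Wwp2 and known from cartilage, had 0.58 ± 0.30 for the 5p arm and -0.67 ± 0.32 for the 3p arm.

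The enrichment difference is made of a difference between the IP libraries and one between the inputs. Both are given with median-ratio factors only. These were 0.61 to 0.85 in KD6 IP and 0.99 to 1.08 in WT IP, which raises the IP part. The IP part was the larger in 9 of the 10 named higher and 9 of the 10 named lower miRNAs. The exceptions with all libraries were miR-10a-5p, given above, and miR-152-3p, a repressor of Dnmt1, with -0.01 in the IP libraries and 0.65 in the inputs. For the let-7 guides the median IP part was 0.83 and the median input part -0.05. For the miR-17 seed family these were -0.85 and 0.18, and for the miR-15/16 family -0.43 and 0.31. Without KD6 input A the IP and input parts were 0.69 and 0.07 for the let-7 guides, -0.98 and 0.39 for the miR-17 seed family and -0.57 and 0.41 for the miR-15/16 family. Then miR-17-5p joined the exceptions, with -0.81 in the IP libraries and 1.06 in the inputs, so that the IP part was the larger in 8 of the 10 named lower miRNAs.

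**Figure D4:**
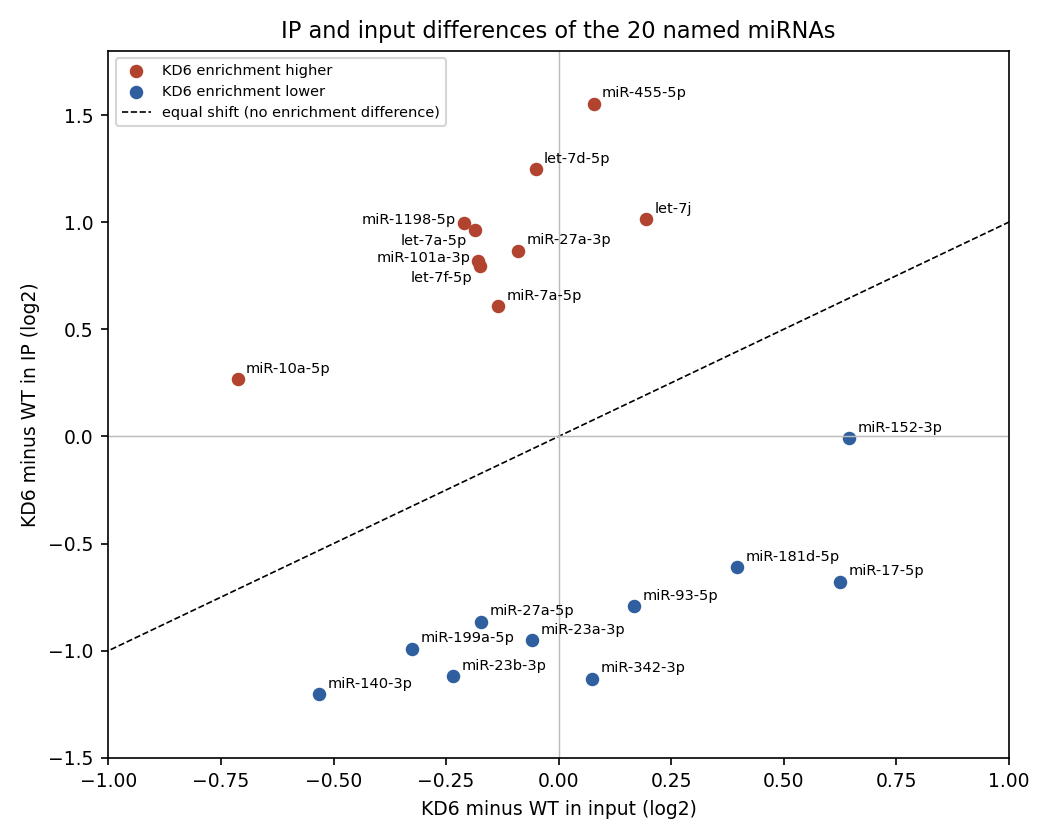
The KD6 minus WT difference (log2) in input on the horizontal axis and in IP on the vertical axis for the 20 miRNAs of the naming rule, red where the enrichment difference was positive and blue where it was negative. Vertical distance from the dashed line of equal shifts is the enrichment difference. Of the 20, 18 lie farther from 0 in IP than in input, and miR-10a-5p and miR-152-3p do not. Both axes use median-ratio factors, which were lower in KD6 IP than in WT IP.

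Base content went with the difference among abundant miRNAs. Across 131 miRNAs with a sequence and a mean of at least 100 CPM, Spearman's rho between the percentage of uridine and the enrichment difference was 0.46, and 0.40 without KD6 input A. It was 0.40 over 122 miRNAs without the let-7 seed. Against the IP part alone rho was 0.59, and against the input part 0.30. Across all 475 miRNAs with a sequence rho was 0.11 for uridine and -0.18 for A. Other bases also went with the difference in the 131 abundant miRNAs, where rho was -0.24 for A. For G and C together it was -0.23, with -0.47 against the IP part and -0.46 against the input part. What lies behind these values was not tested. Among the 131, the 67 that begin with U had a median difference of 0.46, with 50 positive, and the 36 that begin with A had -0.11, with 17 positive. By the last base, the 53 that end in U had a median of 0.56 and the 35 that end in G had -0.12. Without KD6 input A the medians were 0.27 for those that begin with U, -0.17 for A, 0.31 for those that end in U and -0.27 for G. These are descriptions across miRNAs, which share the same 12 libraries and in part their sequence.

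Leaving out KD6 input A, the shallow library, gave 14 calls of 596 miRNAs tested (2.35%), with 7 higher and 7 lower, and a median over all miRNAs of 0.06. The higher ones were miR-3079-5p, miR-455-5p, miR-21a-5p, miR-192-5p, miR-674-3p, miR-101a-3p and let-7f-5p, with differences from 0.83 to 2.99. The lower ones were miR-29a-5p, miR-362-5p, miR-17-5p, miR-342-3p, miR-31-5p, miR-93-5p and miR-23a-3p, from -3.12 to -1.28. All 14 had the same sign with all libraries. miR-3079-5p, miR-29a-5p and miR-362-5p were scarce, with at most 10.1, 2.98 and 10.1 CPM in any IP library.

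miR-21a-5p, a fibroblast miRNA and the most abundant one, shows how far that library reached. It was at 324250, 306670 and 332550 CPM in WT input and at 71224, 84761 and 66546 in WT IP. In KD6 it was at 533330, 259160 and 205690 in input and at 165670, 188170 and 100450 in IP. In CPM, which the lower scaling factors of KD6 IP raise, the KD6 IP values were all above the WT IP values. KD6 input A was above and KD6 inputs B and C below all WT inputs. The difference was 0.98 with all libraries and 1.32 ± 0.31 without KD6 input A (adjusted p = 0.0405 in edgeR).

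Calls also turned on KD6 IP C. Without it 57 of 593 miRNAs passed, 39 higher (6.58%) and 18 lower (3.04%), among them all 10 of the named higher, 6 of the named lower and 5 let-7 guides, and 7 of the 57 were among the 14 called without KD6 input A. The named miRNAs were chosen by their p on these libraries. Leaving out any other of the 12 libraries gave 0 calls.

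**Figure D5:**
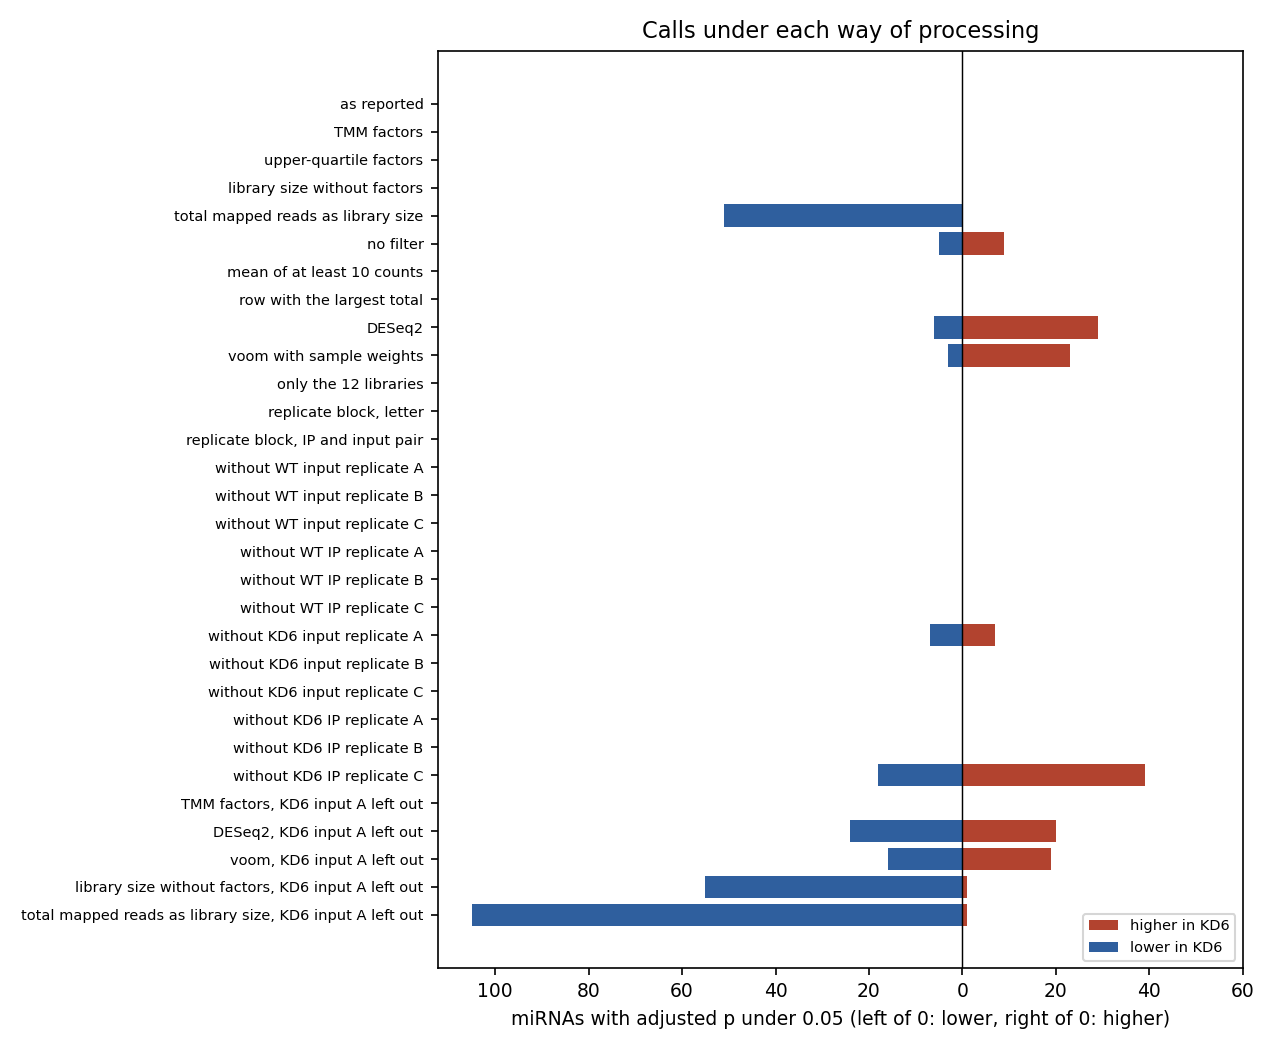
Number of miRNAs with an adjusted p under 0.05 under each way of processing, higher in KD6 to the right of 0 and lower to the left. The analysis as reported gave 0, the removal of KD6 input A gave 7 and 7, that of KD6 IP C gave 39 and 18, and total mapped reads as library size gave 51 lower.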

How the data were processed

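Small RNAs under 200 nt from NIH/3T3 cells were fractionated, 20 to 30 nt RNA was cut from a gel, bound with a mouse monoclonal Ψ antibody, and made into libraries with the NEBNext kit. The authors mapped reads to mm10 with SeqImp and miRBase (pipeline version not given in the sources used here) and deposited estimated counts per mature miRNA and precursor, unnormalized, with reads of several loci divided among them (47.0% of non-zero values were not whole). The row of total mapped reads was kept out of tests.

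Here the 2045 rows were summed to 1907 miRNAs and rounded. The test was that of edgeR 4.0.16 in R 4.3.3 on these counts (median-ratio factors, filterByExpr, glmQLFit, glmQLFTest) in 1 model of 6 group means over 18 libraries, with Benjamini-Hochberg adjustment over the 550 miRNAs kept, threshold 0.05. The contrast is the interaction of knockdown and IP. CPM use effective library sizes, and SE is the log2 difference over the square root of F. Ratios of single libraries added 0.5 CPM. Alternatives were DESeq2 1.42.0, limma 3.58.1, other factors, filters and row choices, a replicate block, and libraries left out. KD6 input A left out together with another scaling or tool was added after seeing the data. Named are the 10 smallest p per direction at 100 CPM or more, all let-7 guides, the 4 miRNAs the study described, and the extremes of each list; others were named after their values were seen. Members and lists were chosen with earlier results of these data known. The scripts were tested on simulated data. Positions and host genes are from RefSeq and GENCODE on GRCm38. Intervals for counting error are not given; a count of 0 was taken to allow 3 counts.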

Additional observations from a re-analysis of the deposited data

How the results depend on the processing

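The number of calls was 0 as reported, with TMM and upper-quartile factors, and with unadjusted library sizes. So it was with a mean of at least 10 counts, the row with the largest total, and the 12 libraries alone. With the 12 alone 515 miRNAs were tested, and the smallest adjusted p in edgeR was 0.235, against 0.0847 as reported. The following counts are of calls. The number was 51 with total mapped reads, 14 without a filter, 35 with DESeq2, 26 with voom, and 0 to 57 with 1 library left out. With KD6 input A left out, chosen after seeing the data, it was 0 with TMM factors, 44 with DESeq2, 35 with voom, 56 with unadjusted library sizes and 106 with total mapped reads, and 55 of the 56 and 105 of the 106 were lower. Of 54 named miRNAs 6, 3, 4, 17 and 21 changed sign there, in that order. The direction of most calls thus depended on the scaling, and the causes of these shifts were not tested.

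Signs turned for these named miRNAs. With TMM factors miR-99b-5p was 0.023 and miR-34c-5p 0.012. With unadjusted library sizes let-7b-5p was -0.076, let-7e-5p -0.31, miR-25-3p -0.44, miR-29a-3p -0.51, miR-214-3p -0.024, miR-26b-5p -0.63, miR-221-5p -0.17 and miR-669c-5p -0.27. With total mapped reads let-7b-5p was -0.22, let-7e-5p -0.46, let-7g-5p -0.094, miR-98-5p -0.073, miR-92a-3p -0.11, miR-25-3p -0.59, miR-30d-5p -0.13, miR-29a-3p -0.66, miR-214-3p -0.18, miR-26a-5p -0.071, miR-26b-5p -0.78, miR-125a-5p -0.090, miR-221-3p -0.052, miR-221-5p -0.32 and miR-669c-5p -0.41. With voom miR-26b-5p was -0.20, miR-99b-5p 0.087 and miR-34c-5p 0.047. With 1 library left out miR-20a-5p ranged from -0.82 to 0.098, miR-25-3p from -0.19 to 0.39, miR-29a-3p from -0.29 to 0.70, miR-29b-3p from -1.84 to 1.40, miR-26b-5p from -0.47 to 0.52, miR-125b-5p from -0.66 to 0.045, miR-99b-5p from -0.20 to 0.013 and miR-181b-5p from -0.59 to 0.14.

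A replicate block by letter or by IP and input pair gave 0 calls, with 113 and 98 miRNAs at an unadjusted p under 0.05. Same-letter deviations across 189 miRNAs did not all correlate above 0.1 in any pair of groups (from -0.22 to 0.53 between KD6 input and KD6 IP), so the letters were not taken to pair the libraries. KD6 input A was the shallowest library, and which library limits the comparison most was not tested. Of the 550 miRNAs, 32 had a group of libraries all at 0.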
